A study of Mus musculus with 2 samples.

Results

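C1q macrophages were examined in single-cell RNA sequencing of whole lungs from mice bearing 4T1 tumors. They were cells with at least 10 unique molecular identifiers (UMIs, counts of distinct captured transcripts) of C1qa, C1qb and C1qc together. They also had under 5 UMIs of 5 alveolar macrophage genes, under 5% of UMIs in the neutrophil genes S100a8 and S100a9, and none of Cd3e (T cells) or Cd79a (B cells). These cells were selected on their own transcript counts, so the level of the 3 C1q genes is a description and not a result. In all, 63 of 16995 cells met the rule, 20 of 8662 in the saline library and 43 of 8333 in the library from mice given nanoparticles (NPs).

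The mice were 12-week-old female BALB/cJ animals, and all of them carried tumors from 100000 cells of 4T1, a mouse mammary carcinoma line that spreads to the lung from the mammary fat pad. The methods name the line 4T1-luc2-tdTomato, a derivative that carries luciferase and a red fluorescent protein as reporters. The NP group received intravenous poly(lactide-co-glycolide) (PLG) particles without a drug cargo, and the control group received intravenous saline. Dosing was repeated every 3 days for 5 doses, and lungs were taken 14 days after inoculation. Each condition is 1 library made from pooled lungs of 4 mice by the labels, and the methods give another number, so the animals cannot be separated. There was no tumor-free group and no replicate library. No test between the conditions was therefore possible, every interval below covers counting error only, and "higher" and "lower" describe these 2 libraries.

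C1q is the recognition protein of the classical complement pathway, built from the chains encoded by C1qa, C1qb and C1qc, and resident macrophages are a main source of it. In the lung, macrophages of the airspaces (alveolar macrophages) differ from those of the tissue around bronchi and vessels (interstitial macrophages), which are known for C1q, for the chemokine Pf4 and for Ms4a7. Interstitial macrophages are commonly split into cells with Lyve1, Folr2 and Cd163, known near vessels, and cells rich in MHC class II, the complex that presents peptides to CD4+ T cells.

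The limits of the rule removed few cells. Of the cells with 10 or more C1q UMIs, 22 in saline and 51 in NP, the limit on S100a8 and S100a9 removed 2 and 3. The limit on 5 alveolar genes (Marco, Krt79, Plet1, Atp6v0d2 and Fabp1) removed 1 NP cell, Cd3e removed 3 NP cells and Cd79a removed 1 NP cell. The alveolar sum was 0 in all 20 selected saline cells and in 40 of 43 NP cells, with a highest value of 4. Just inside the C1q limit, with 10 to 14 UMIs, lay 1 saline cell with 13 UMIs and 4 NP cells with 10 or more. Just outside it, with 5 to 9 UMIs and all other limits met, lay 3 saline cells with at most 8 UMIs and 2 NP cells with at most 9. The scatter of C1q against alveolar transcripts shows the C1q and alveolar limits, for cells that met the limit on S100a8 and S100a9.

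**Figure D1:**
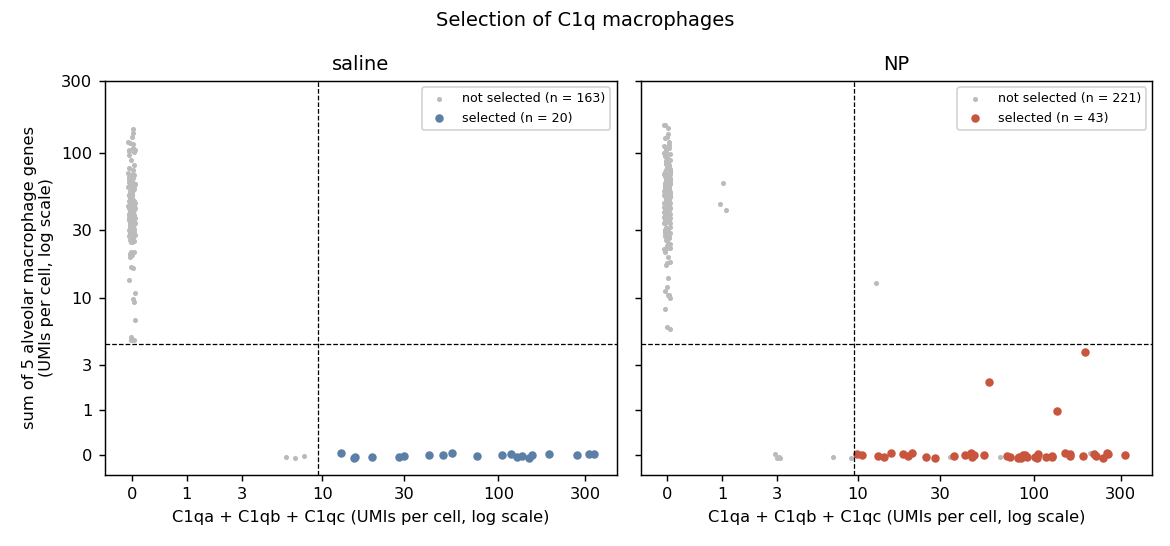
Each point is a cell, with the C1q sum on the x axis and the sum of 5 alveolar macrophage genes on the y axis (UMIs per cell, log scales). Cells with S100a8 and S100a9 under 5% of UMIs are drawn if they had 3 or more C1q UMIs or 5 or more alveolar UMIs. Dashed lines mark the 2 limits, and 20 saline and 43 NP cells were selected.

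C1q macrophages made up 0.231% of kept saline cells (95% Clopper-Pearson interval, 0.141 to 0.356) and 0.516% of kept NP cells (0.374 to 0.694). The ratio of these shares was 2.23 (1.29 to 4.01). Neutrophils fill much of the remainder, and the ratio depends on them. Over cells with S100a8 and S100a9 under 5% of UMIs, the shares were 0.642% (20 of 3113 cells, 0.393 to 0.991) and 0.829% (43 of 5190, 0.600 to 1.11), a ratio of 1.29 with overlapping intervals. Of C1q and alveolar macrophages together, C1q cells were 11.4% in saline (20 of 176) and 17.1% in NP (43 of 252). How many cells left the tissue alive in each digestion was not measured, so numbers of cells in the lung cannot be read from these shares.

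The selected cells were deeply sequenced. The median was 11793.5 UMIs and 2911 genes per saline cell, from 1571 to 23252 UMIs. The NP cells had a median of 13994 UMIs and 3320 genes, from 3535 to 31355 UMIs. Pooled over cells, the comparison rests on 221796 saline and 603389 NP UMIs. No barcode of a selected cell was shared by the 2 selections, although 21 kept barcodes occurred in both libraries and 1 selected saline cell had its barcode among the kept NP cells.

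The label of interstitial macrophages was checked against its own markers and against those of other cells. The C1q genes cannot serve for this, because their presence was set by the rule (C1qa was counted in 20 of 20 saline and 41 of 43 NP cells). Of the markers that the rule did not use, Pf4, a chemokine also stored in platelets, was counted in only 10 of 20 saline and 22 of 43 NP cells, and Ms4a7, a membrane protein of tissue macrophages, in 10 and 25. In B cells with a median of 4400 and 4508 UMIs, Pf4 was counted in 0.624% and 0.951%. Thinned to 2000 UMIs per cell, which left out 1 saline cell, Pf4 was present in 6 of 19 saline cells (31.6%, 12.6 to 56.6) and in 17 of 43 NP cells (39.5%, 24.98 to 55.59), against 0.209% and 0.160% of B cells. The platelet genes Ppbp, Gp9, Gp1bb and Treml1 were at 0 in both selections, and Itga2b had 1 saline and 0 NP UMIs.

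General macrophage genes differed in level. Cd14, a co-receptor for bacterial lipids, was at 1239.9 CPM (UMIs scaled to a common total over the pooled selected cells) in saline and 1193 CPM in NP. The receptor for macrophage colony-stimulating factor, Csf1r, was at 676 and 530.3 CPM and was counted in 19 of 20 and 42 of 43 cells. Both genes are shared with classical monocytes, where they were at 608 and 295 CPM in the saline library. Of the 14 genes of the list, 13 had at least 50 UMIs, and Mertk, with 6 and 16 UMIs, did not. Fcgr1 was counted in 7 of 20 and 30 of 43 cells. The rule itself set Cd3e and Cd79a to 0, so the counts of other lymphocyte genes are in part fixed by it. The T and NK cell genes besides Cd3e summed to 0 and 1 UMIs, and the B cell gene Ms4a1 was at 0. The 8 dendritic cell genes summed to 21 and 28 UMIs. Classical monocyte genes (Ly6c2, Ccr2, Plac8 and 5 others) were not absent, at 1993 CPM in saline and 1100 CPM in NP, with Plac8 the most abundant and no member at 0. Non-classical monocyte genes were at 546 and 912 CPM, led by Pou2f2. The cells are therefore called C1q macrophages here, because the data show more than 1 kind of cell within the rule and carry no information on position in the tissue.

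Within the selection, 3 sets of cells stood apart by genes that the rule did not use. These sets were drawn after the values were seen and are descriptions. Cells with at least 5 UMIs of Pf4 and cells with at least 5 UMIs of Ccr2, the chemokine receptor of circulating classical monocytes, did not overlap in either library. There were 6 saline and 12 NP cells of the first kind, 6 and 15 of the second, 0 and 0 of both, and 8 and 16 of neither.

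The smallest set held 2 saline and 6 NP cells with 10 or more UMIs of Prg4 and Alox15 together. Prg4 encodes a lubricating secreted protein and Alox15 a lipid-oxidizing enzyme, and both are known from macrophages of the serous cavities. Prg4 summed to 293 UMIs in the 2 saline cells and to 744 UMIs in the 6 NP cells, against 1 and 0 UMIs in all other selected cells. Alox15 was at 177 and 455 UMIs, against 2 and 0 elsewhere. The same cells held 626 of 685 saline and 1743 of 1877 NP UMIs of Fn1, the matrix protein fibronectin. They held 48 of 48 and 121 of 123 UMIs of F5, coagulation factor V, and 32 of 32 and 69 of 73 UMIs of the adhesion molecule Icam2. Gata6, a transcription factor of cavity macrophages, was counted only in NP cells of this set, with 20 UMIs. C1q was high in these 8 cells, with medians of 213 UMIs in saline and 164 UMIs in NP, while class II was nearly absent, at most 0.0996% of UMIs. Outside the selection, 2 kept saline cells and 2 kept NP cells also had 10 or more UMIs of the pair.

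Of the remaining cells, 5 saline and 8 NP cells had at least 5 UMIs of Pf4. They carried 66 of 76 saline and 103 of 143 NP UMIs of Mrc1, the mannose receptor, and 22 of 22 and 29 of 30 UMIs of Folr2, a folate receptor of resident macrophages. Lyve1, a hyaluronan receptor, was found mainly here, with 11 of 12 and 32 of 33 UMIs. Apoe, the lipid carrier apolipoprotein E, reached 2521 UMIs in the 5 saline cells and 2578 UMIs in the 8 NP cells.

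Another set, 7 saline and 17 NP cells, had at least 5 UMIs of Ccr2 or at least 10 UMIs of Fcgr4 and Ace, genes known from classical and non-classical monocytes. It held 185 of 187 saline and 289 of 299 NP UMIs of Plac8. Its C1q sums were lower, with medians of 51 UMIs in saline and 57 UMIs in NP, against 196 and 148 UMIs in the Pf4 set. Pf4 summed to 0 and 4 UMIs there. The last 6 saline and 12 NP cells met none of these limits. In shares, the 4 sets were 10%, 25%, 35% and 30% of the saline cells and 14.0%, 18.6%, 39.5% and 27.9% of the NP cells. Their intervals overlapped for every set (for example 8.66 to 49.1% and 8.39 to 33.4% for the Pf4 cells), and with 1 library per condition no difference in makeup was tested.

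**Figure D2:**
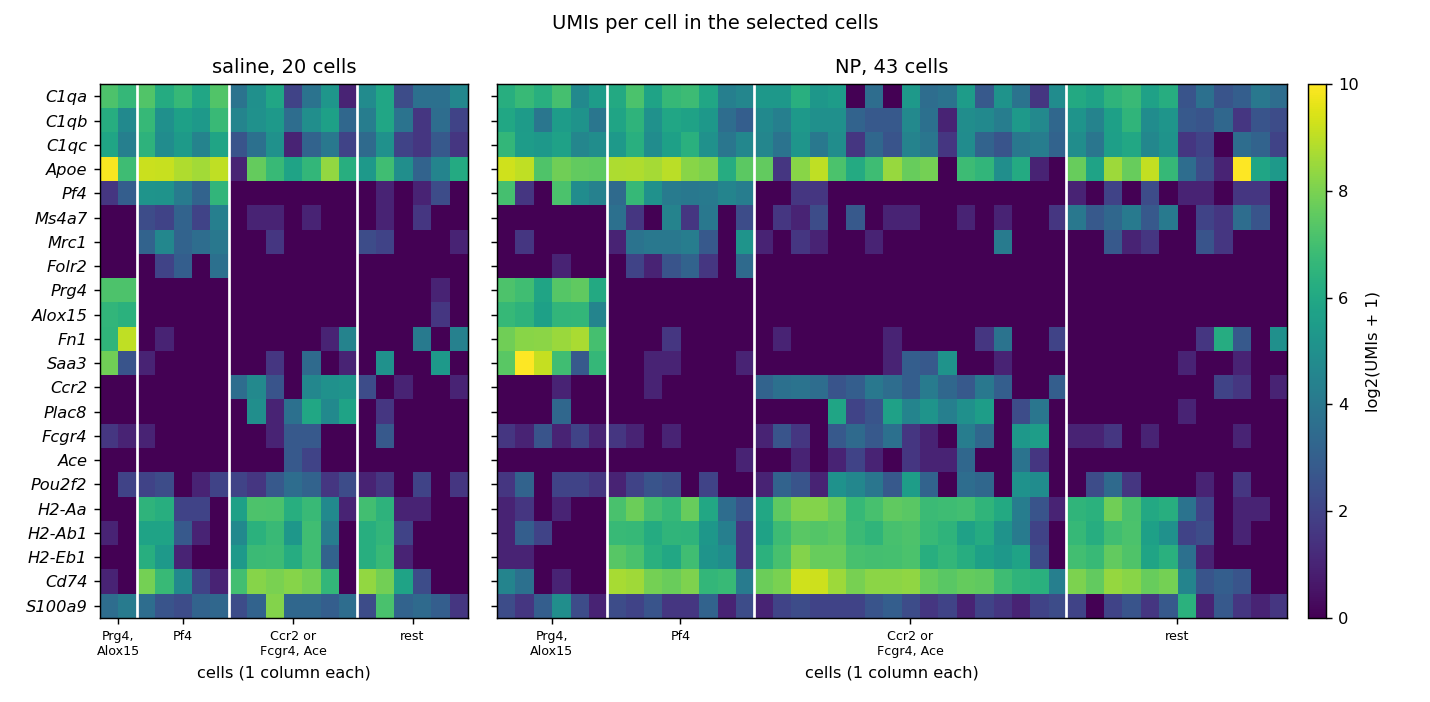
Each column is a selected cell and each row a gene, colored by log2(UMIs + 1), for 20 saline cells (left) and 43 NP cells (right). White lines part the Prg4 and Alox15 cells (2 and 6), the Pf4 cells (5 and 8), the cells with Ccr2 or with Fcgr4 and Ace (7 and 17) and the rest (6 and 12), and cells run from high to low class II within a set.

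For the comparison of NP with saline, UMIs of each gene were pooled over the selected cells of a library and scaled to CPM. Ratios were formed for 2322 genes with at least 50 UMIs over both libraries, and a count under 3 was set to 3. The median log2 ratio was -0.03. In NP, 57 genes were at least 2-fold higher, 2.45% of the genes, and 41 were at least 2-fold lower, 1.77%. These counts grew to 298 and 234 when genes with 20 UMIs entered and shrank to 14 and 18 at 100 UMIs. With the cell holding the most UMIs of a gene left out of each library, they were 138 higher and 27 lower, a step that removes 1 of 20 saline cells but 1 of 43 NP cells per gene. Over all 2322 genes, 48.1% had a ratio above 0.

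**Figure D3:**
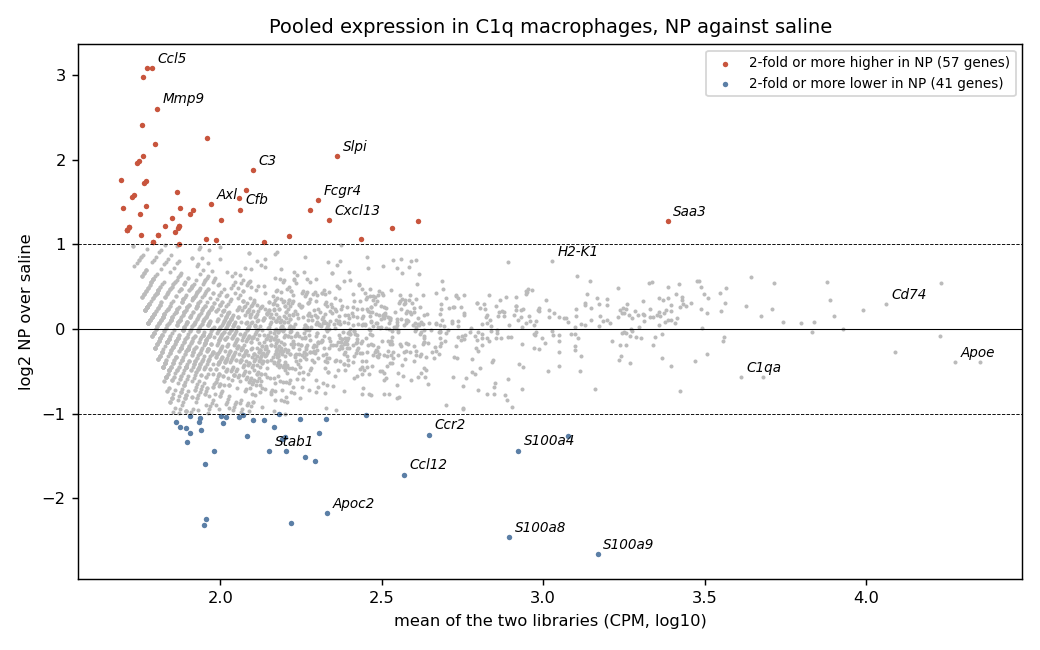
Each point is 1 of 2322 genes, with the mean CPM of both libraries on the x axis (log10) and the log2 ratio of NP over saline on the y axis. Red points are 57 genes at least 2-fold higher and blue points 41 genes at least 2-fold lower in NP, and the ratios spread more at low levels.

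Among the genes higher in NP were C3, Cfb and Ccl5, although the complement list as a whole was even, with 4 of 11 measured members higher (48.1% of all genes) and a median of -0.05. C3, the central complement component, had 12 saline and 120 NP UMIs (54.1 and 199 CPM, log2 ratio 1.88, 95% counting interval 1.02 to 2.87). It was counted in 6 of 20 and 19 of 43 cells, and 1 NP cell held 63 of its UMIs. Without the top cell of each library the ratio of C3 was 1.39. Cfb, factor B of the alternative pathway, had 14 and 101 UMIs (log2 ratio 1.41, 0.59 to 2.33) and was counted in 3 and 19 cells. Of the 14 saline UMIs of Cfb, 13 came from the Prg4 and Alox15 cells. The chemokine Ccl5, which draws T cells and monocytes, had 2 and 69 UMIs (log2 ratio 3.08, 1.76 to 6.74). Its 69 NP UMIs came from 7 cells, 1 of which held 41, and without the top cell of each library the ratio was 1.78. That ratio used a saline count under 3 that was set to 3.

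The receptors Fcgr4 and Axl were also among the higher genes, although the list of uptake receptors that holds them was mixed. Fcgr4, an activating Fc receptor known from non-classical monocytes, had 23 and 180 UMIs (log2 ratio 1.52, 0.89 to 2.22) and was counted in 7 of 20 and 27 of 43 cells. The NP cells with the most UMIs of Fcgr4 held 46 and 39, and both met the limit on Fcgr4 and Ace given above. In the cells with class II at 1% of UMIs or more, the ratio of Fcgr4 was 0.30. Axl, a receptor that takes part in the uptake of dying cells, had 11 and 83 UMIs (log2 ratio 1.47, 0.56 to 2.53). Myh9, the heavy chain of non-muscle myosin, had 23 and 166 UMIs (log2 ratio 1.41, 0.77 to 2.10) and was counted in 10 of 20 and 39 of 43 cells, with at most 21 UMIs in a cell. Dusp2, a phosphatase that dampens MAP kinases, stood at a log2 ratio of 1.54 (0.70 to 2.50) and the chaperone gene Hsp90aa1, counted in 16 and 39 cells, at 1.28 (0.86 to 1.72).

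For other high ratios, few cells carried the transcripts. Mmp9, a gelatinase, had 4 saline UMIs in 1 cell and 66 NP UMIs in 5 cells (log2 ratio 2.60, 1.18 to 4.52). Saa3, an acute-phase protein, had 316 and 2078 UMIs (log2 ratio 1.27), of which 229 and 2024 lay in the Prg4 and Alox15 cells and 1072 in a single NP cell. Without those 2 and 6 cells the ratio of Saa3 was -2.10, and that of Slpi, a protease inhibitor, went from 2.04 to -1.87. Cxcl13, a B cell chemokine, had 28 and 186 UMIs, 113 of them in 1 NP cell, and Spata7 had 13 and 110 UMIs in 3 and 6 cells. Gpnmb, a lysosomal glycoprotein of lipid-loaded macrophages, had 0 and 36 UMIs, at least 4.41-fold higher in NP against a floor of 3 UMIs in the saline library, but 35 of them came from 1 cell.

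The largest differences in the other direction were in neutrophil transcripts. S100a8 and S100a9, alarmins that neutrophils make in large amounts, had 295 and 566 UMIs in saline and 146 and 243 in NP (log2 ratios -2.46 and -2.66). The rule limited both genes to under 5% of UMIs. They were counted in all 20 saline cells, and 630 of their 861 saline UMIs lay in 2 cells, against 107 of 389 NP UMIs in 1 cell. Without these 3 cells the ratios were -1.11 and -1.45. The 12 neutrophil genes together were at 4301 CPM in saline and 839 CPM in NP, led by S100a9, with Ltf at 0. The median cell had 0.133% and 0.0550% of its UMIs in them. Barcodes with 10 to 50 UMIs, which hold mostly free RNA, had S100a9 at 83112 CPM in the saline and 37268 CPM in the NP library.

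Few genes of the 2 monocyte lists could be measured. Of the non-classical list, 4 of 4 measured genes were higher in NP (48.1% of all genes were), 2 of them past 2-fold (2.45%), with a median log2 ratio of 0.93. Among other cells of these libraries, selected by markers, the median of this list was 1.16 in classical monocytes, 1.17 in B cells, 0.30 in alveolar macrophages and 0.34 in non-classical monocytes, which were themselves selected by genes of the list. Spn, the surface protein CD43, had 6 and 54 UMIs (1.73, 0.51 to 3.23), Treml4, a receptor of these monocytes, 9 and 50 (1.03, -0.01 to 2.24), and the transcription factor gene Pou2f2 58 and 281 (0.83, 0.42 to 1.27). The remaining measured gene, Adgre4, was close to even (23 and 66 UMIs, 0.08, -0.63 to 0.83). Under 50 UMIs, Eno3 was lower in NP (12 and 6 UMIs, -2.44), and Ace, Cd300e and Dusp16 were higher (0.52, 2.33 and 1.06). Of the classical list, 1 of 4 measured genes was higher (48.1% of all genes) and Ccr2 passed 2-fold downward (1.77%), with a median of -0.71. Ccr2 had 138 and 158 UMIs (622 and 262 CPM, log2 ratio -1.25, -1.59 to -0.91), while nearly the same share of cells carried it, 9 of 20 and 20 of 43. Among other lower genes, S100a4, a calcium-binding protein of motile cells, had a log2 ratio of -1.44 (-1.69 to -1.19), Cx3cr1, the fractalkine receptor, -1.02 (-1.44 to -0.59), and C5ar1, a receptor for complement fragment C5a, -1.23 (-1.74 to -0.72). Ccl12, a monocyte-attracting chemokine, had 126 and 104 UMIs (log2 ratio -1.72, -2.11 to -1.33) in 5 and 10 cells. Cells with at least 2 UMIs of Lyve1, Folr2 and Cd163 together, 5 in saline and 6 in NP, held 123 and 59 of them. In the other selected cells Ccl12 had 3 and 45 UMIs and was higher in NP (2.32, 0.68 to 4.65). Stab1, a scavenger receptor, stood at -1.44 (-2.07 to -0.82), the nucleotide receptor P2ry6 at -1.28 (-1.86 to -0.70), and Ifitm1, an antiviral membrane protein, at -1.56 (-2.09 to -1.03). Outside the Lyve1, Folr2 and Cd163 cells, Cx3cr1 was at -0.23 (-0.82 to 0.38), P2ry6 at -0.43 (-1.19 to 0.36) and Stab1 at -0.70 (-2.13 to 0.87). There S100a4, C5ar1 and Ifitm1 remained lower, at -1.67, -1.31 and -2.92. Without the cells rich in S100a8 and S100a9, Ifitm1 was at -0.31. Single cells weighed on Apoc2 and Apoc1, apolipoproteins of lipid-loaded macrophages, with ratios of -2.17 and -1.52 in all cells and of -0.74 and 1.14 without the top cell of each library. For Apoc1, 1 cell held 57 of 60 saline UMIs, so the 1.14 rests on a saline count at the floor of 3. The ratios of Dennd4a and of the noncoding Gm26532 were -1.44 and -1.30.

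MHC class II was the most abundant of the gene lists whose summed CPM was higher in NP. Its 11 genes summed to 23900 CPM in saline and 31708 CPM in NP (log2 ratio 0.41, 95% counting interval 0.36 to 0.45). Of 7 measured members, 6 were higher in NP and 0 passed 2-fold. Of all genes, 48.1% were higher, 2.45% passed 2-fold upward and 1.77% downward. The median log2 ratio of the members was 0.33, against -0.03 over all genes. The chains that form the peptide groove led: H2-Aa had 939 and 3720 UMIs (log2 ratio 0.54, 0.44 to 0.65), H2-Eb1 771 and 3201 (0.61, 0.50 to 0.73), and H2-Ab1 683 and 2599 (0.48, 0.36 to 0.61). Cd74, the invariant chain that guards the groove, stood at 0.29 (0.22 to 0.36), and Ctss, the protease that removes it, at 0.33 (0.17 to 0.50). The peptide exchange factors H2-DMa and H2-DMb1 were close to even, at 0.07 and -0.01. Ciita, the master regulator of class II transcription, had only 13 and 35 UMIs.

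The class II genes of the groove lie side by side on chromosome 17, and the promoters of 2 of them are shown because they carry the Y box, a motif that nuclear factor Y is known to bind at class II genes. The windows are the 150 bases before the transcription start in RefSeq on GRCm38.p6, given 5′ to 3′ on the strand of the gene, with the motif CTGATTGG in capitals. The reference is not the BALB/cJ genome, and class II loci differ among mouse strains.
H2-Aa, chr17:34287824-34287973, minus strand: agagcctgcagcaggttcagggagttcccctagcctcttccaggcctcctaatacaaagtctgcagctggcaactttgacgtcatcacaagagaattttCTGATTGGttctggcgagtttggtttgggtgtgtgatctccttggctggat
H2-Eb1, chr17:34305717-34305866, plus strand: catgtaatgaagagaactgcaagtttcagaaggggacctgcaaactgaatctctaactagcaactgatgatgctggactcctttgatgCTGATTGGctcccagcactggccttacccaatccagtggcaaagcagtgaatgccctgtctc
The motif ends 44 bases before the start in H2-Aa and 55 bases before it in H2-Eb1. Searched on both strands, it occurs in 3.16% of all 32851 promoter windows of this length, and in 3 of the 8 listed class II genes found in the table. A match is a description of the letters and not evidence of binding in these cells.

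The class II genes were split between cells. The 4 genes H2-Aa, H2-Ab1, H2-Eb1 and Cd74 together had a median of 0.987% of UMIs in the saline library, with a highest cell at 10.4%, and a median of 3.12% in the NP library, with a highest cell at 10.7%. At a limit of 1%, set after the values were seen, class II high cells were 10 of 20 in saline (50%, 27.2 to 72.8) and 28 of 43 in NP (65.1%, 49.1 to 79.0), and 3 and 4 cells lay between 0.5 and 2%. The intervals overlapped. Those cells held 99.0% of the H2-Aa UMIs in each library. Among them the median share of the 4 genes was 4.18% in saline and 4.37% in NP, the median log2 ratio of the list was 0.03, and those of H2-Aa, H2-Eb1 and Cd74 were 0.27 (0.16 to 0.37), 0.31 (0.20 to 0.43) and 0.03 (-0.04 to 0.09). The limit was set on these same genes, so the values within the class II high cells are a description and do not show where the difference between the libraries lies. The shares of class II high cells differed between the sets described above: 0 of 2 and 0 of 6 Prg4 and Alox15 cells, 2 of 5 and 7 of 8 Pf4 cells, and 6 of 7 and 14 of 17 cells with Ccr2 or with Fcgr4 and Ace.

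MHC class I, which presents peptides to CD8+ T cells, was also higher in NP. Its 20 genes summed to 9130 CPM in saline and 11644 CPM in NP (log2 ratio 0.35, 0.28 to 0.42). Of 14 measured members, 12 were higher and 1 passed 2-fold, with a median of 0.23, where 48.1% of all genes were higher and 2.45% passed 2-fold upward. H2-K1, a classical heavy chain, had 173 and 818 UMIs (log2 ratio 0.80, 0.56 to 1.04) and was counted in 17 of 20 and 42 of 43 cells. B2m, the shared light chain, stood at 0.54 (0.38 to 0.71), the heavy chain H2-D1 at 0.23 (0.13 to 0.33), and the proteasome activators Psme1 and Psme2 at 0.67 and 0.59. H2-Q7 had the largest ratio, 1.56 (0.33 to 3.07), from 6 and 48 UMIs, but class I genes of the Q region are close copies between which reads can be split. H2-D1 and B2m were counted in every selected cell, and the class II gene H2-Aa in 15 of 20 and 38 of 43. Levels were uneven, and 1 saline cell held 294 of 1043 saline UMIs of H2-D1. In cells with at least 2 UMIs of Lyve1, Folr2 and Cd163 together, H2-D1 was at 1.08 (0.82 to 1.34). In the other cells it was at 0.05 (-0.06 to 0.16). For B2m the 2 values were 0.72 and 0.49, and for H2-K1 1.27 and 0.69.

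Most interferon response genes had too few UMIs in these 20 and 43 cells to be measured singly, and the counting intervals of the summed ratios included 0. The list of 30 genes of the IFN-γ response, which include guanylate-binding proteins (GBP) and immunity-related GTPases (IRG), summed to 207 saline and 605 NP UMIs, 933 and 1003 CPM (log2 ratio 0.10, -0.13 to 0.34). Only 5 members reached 50 UMIs, 3 of them were higher in NP (48.1% of all genes) and 0 passed 2-fold (2.45% upward), with a median of 0.19. Irf1, a transcription factor induced by IFN-γ, was at -0.01 (-0.66 to 0.69) and Irf8, a factor of the mononuclear phagocyte lineage, at -0.09 (-0.62 to 0.46). Cxcl9 and Cxcl10, chemokines that draw T cells, had 0 and 4 saline UMIs and 4 and 4 NP UMIs. The 15 GBP and IRG genes had 70 and 221 UMIs, 316 and 366 CPM (log2 ratio 0.21, -0.18 to 0.62), and Iigp1 had 0 saline and 22 NP UMIs in 4 cells. Of the type I interferon list, 3 of 42 genes reached 50 UMIs: Bst2 at 0.57, Ly6e at 0.34 and Ifitm3 at -0.32. The list summed to 3143 and 2938 CPM (log2 ratio -0.10, -0.22 to 0.03), while the median of the 3 genes, 0.34, had the other sign.

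The same lists were computed in alveolar macrophages (156 saline and 209 NP cells) and in classical monocytes (434 and 988 cells), selected by Ly6c2 and Ccr2 with under 3 C1q UMIs. Non-classical monocytes (425 and 1410 cells), selected by Ace, Treml4 and Cd300e, were compared as well. The GBP and IRG genes were at 159 and 220 CPM in alveolar macrophages (log2 ratio 0.47, 0.30 to 0.64), at 248 and 777 CPM in classical monocytes (1.65, 1.58 to 1.72), and at 465 and 1718 CPM in non-classical monocytes (1.89, 1.81 to 1.97). The counting intervals of both kinds of monocyte did not overlap that of C1q macrophages, and the interval of the alveolar macrophages did. The saline level of the whole IFN-γ list was 933 CPM in C1q macrophages, 478 CPM in alveolar macrophages, 789 CPM in classical monocytes and 1077 CPM in non-classical monocytes. The log2 ratios of these sums were 0.10, 0.15, 1.06 and 1.32. For MHC class I, the ratios in C1q macrophages, alveolar macrophages, classical monocytes and non-classical monocytes were 0.35, 0.18, 0.55 and 0.72. For MHC class II they were 0.41, 0.25, 0.66 and 0.56. The medians over the measured class II genes were ordered differently, at 0.33, 0.65, 0.76 and 0.59. Class II in C1q macrophages started from 23900 CPM, against 3164 in alveolar macrophages, 3583 in classical monocytes and 5999 in non-classical monocytes. Of these saline sums, the protease gene Ctss made up 1799, 2603, 1580 and 873 CPM, so they compare different mixes of genes. The difference of these ratios between cell types was not tested, since each rests on the same 2 libraries.

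**Figure D4:**
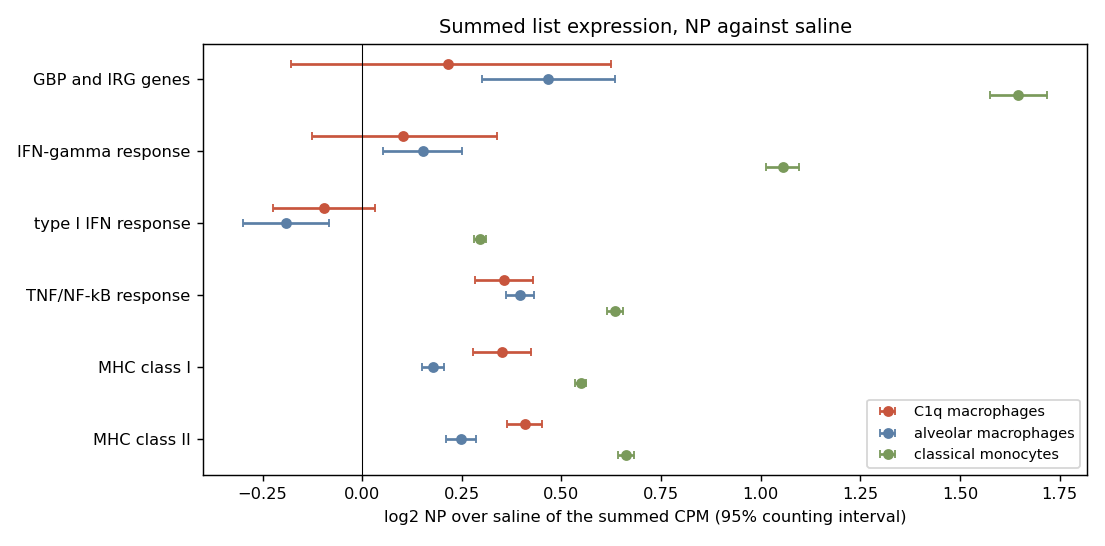
Points are log2 ratios of NP over saline of the summed CPM of a gene list, with 95% counting intervals, in C1q macrophages (20 and 43 cells), alveolar macrophages (156 and 209) and classical monocytes (434 and 988). For GBP and IRG genes, C1q macrophages are at 0.21 and classical monocytes at 1.65.

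Genes of the TNF and NF-κB response were higher in NP in most cases. The 31 genes summed to 8945 CPM in saline and 11439 CPM in NP (log2 ratio 0.35, 0.28 to 0.43), and 19 of 24 measured members were higher (48.1% of all genes were), 1 of them past 2-fold (2.45%), with a median of 0.39 against -0.03. Cxcl2, a neutrophil-attracting chemokine and the most abundant member, had 470 and 1650 UMIs (log2 ratio 0.37, 0.22 to 0.52). Il1b, the cytokine interleukin-1β, had 259 and 940 UMIs (0.42, 0.22 to 0.62), and Sod2, a mitochondrial antioxidant enzyme, 20 and 111 (1.03, 0.33 to 1.79). The survival gene Bcl2a1d was at 0.73 (0.27 to 1.21), although it has near-identical copies, and Plaur, the urokinase receptor, at 0.68 (0.11 to 1.29). Of the members lower in NP, Il6 passed 2-fold (30 and 27 UMIs, log2 ratio -1.60), but 28 of its saline UMIs came from 1 cell, and without the top cell of each library the ratio was 1.06. That ratio used a saline count under 3 that was set to 3. The same list had a log2 ratio of 0.40 in alveolar macrophages, 0.63 in classical monocytes and 0.54 in non-classical monocytes.

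Of 19 chemokine genes, 14 were measured, 10 were higher in NP, 2 passed 2-fold upward (Ccl5 and Cxcl13) and 1 downward (Ccl12), where the shares of all genes were 48.1%, 2.45% and 1.77%. Most NP UMIs of Ccl5 and of Cxcl13 lay in 1 cell each. Outside the cells with at least 2 UMIs of Lyve1, Folr2 and Cd163 together, Ccl12 was higher in NP (2.32, 0.68 to 4.65). The sum was 7561 and 8895 CPM (log2 ratio 0.23, 0.15 to 0.31). Ccl3 and Ccl4, chemokines that macrophages release on activation, stood at 0.82 (0.43 to 1.23) and 0.45 (0.20 to 0.71), and Ccl3 was counted in 7 of 20 and 25 of 43 cells. Cxcl1 was at 0.58 (0.10 to 1.08) and Ccl24, an eosinophil chemokine, at 0.82 (0.40 to 1.27), with 191 of its 264 NP UMIs in the Prg4 and Alox15 cells. The monocyte chemokines Ccl2 and Ccl7 had ratios of -0.29 (-0.63 to 0.06) and -0.15 (-0.61 to 0.33), and Ccl6, Ccl9 and Cxcl16 of 0.09, -0.30 and 0.19. Pf4 had 205 and 575 UMIs (0.04, -0.19 to 0.28), of which 9 and 323 lay in the Prg4 and Alox15 cells, and without those cells its ratio was -1.05.

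The 15 complement genes summed to 3697 and 3721 CPM (log2 ratio 0.01, -0.11 to 0.13). Of 11 measured members, 4 were higher in NP, and C3 and Cfb above and C5ar1 below were past 2-fold, beside 48.1%, 2.45% and 1.77% of all genes. C4b, of the classical pathway, had 180 and 539 UMIs (0.14, -0.11 to 0.39), 178 and 506 of them in the Prg4 and Alox15 cells. Properdin (Cfp) was at -0.06 and the receptor for C3a (C3ar1) at 0.24. The genes of the selection rule were C1qa with 4901 CPM in saline and 3301 CPM in NP, C1qb with 3305 and 1997 CPM, and C1qc with 2002 and 1868 CPM. The median cell had 88.5 C1q UMIs in saline and 87 in NP.

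Receptors for uptake were mixed, with 9 of 17 measured members higher, 2 past 2-fold upward and 1 downward, beside 48.1%, 2.45% and 1.77% of all genes, and a median log2 ratio of 0.02. Besides Fcgr4, Axl and Stab1, the C-type lectin Clec4n was at 0.92 (0.26 to 1.63) and the lysosomal receptor Scarb2 at 0.73 (0.07 to 1.45), while Lrp1, a receptor for lipoproteins and dying cells, was at -0.77 (-1.16 to -0.37) and Mrc1 at -0.53 (-0.94 to -0.11). The Fc receptors Fcgr2b and Fcgr3, counted in nearly every cell, were at 0.02 and -0.23. Marco, a scavenger receptor that takes up particles and that the rule held under its limit, had 0 and 4 UMIs.

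Among 24 lipid and lysosome genes, 21 were measured, 14 were higher in NP (48.1% of all genes) and 0 passed 2-fold (2.45% upward and 1.77% downward), with a median of 0.10. The sum went the other way, with 34987 CPM in saline and 31686 CPM in NP (log2 ratio -0.14, -0.18 to -0.10). Apoe was the most abundant, at 21398 CPM in saline and 16321 CPM in NP (log2 ratio -0.39, -0.44 to -0.34). Its UMIs in all selected cells were 4746 and 9848. Cells with at least 2 UMIs of Lyve1, Folr2 and Cd163 together, 5 in saline and 6 in NP, held 2521 and 1904 of them. In the other selected cells Apoe was higher in NP, at 12934 CPM in saline and 15343 CPM in NP (0.25, 0.18 to 0.31). Plin2, which coats lipid droplets, was at -0.90 (-1.21 to -0.59). The cathepsin Ctsz was at 0.41 (0.16 to 0.67) and Cd63, a lysosomal membrane protein, at 0.39 (0.07 to 0.72). Of the genes known from tumor-associated macrophages, 9 of 17 were measured, 6 were higher in NP (48.1% of all genes) and Mmp9 alone passed 2-fold (2.45%), with a median of 0.25. Their sum, of which Apoe is the largest part, was 22908 CPM in saline and 18313 CPM in NP (log2 ratio -0.32, -0.37 to -0.27). Hmox1, heme oxygenase, was at 0.69 (-0.13 to 1.61) and Tgfb1 at 0.25 (-0.16 to 0.67).

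**Figure D5:**
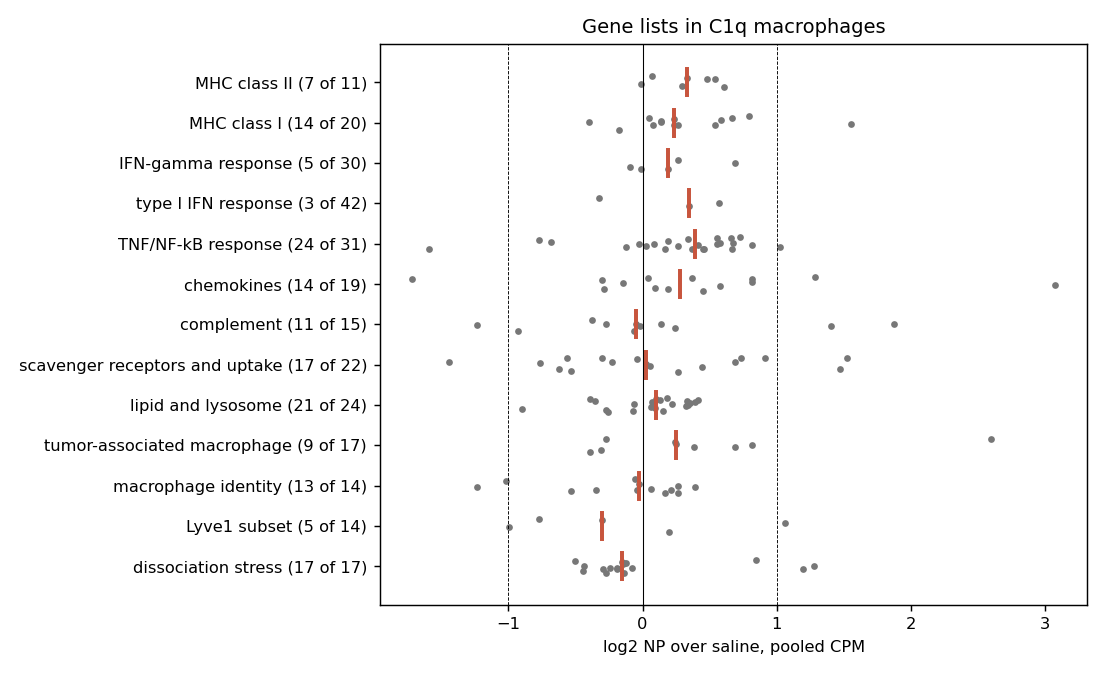
Each grey point is the log2 ratio of NP over saline of a gene with at least 50 UMIs, grouped by list, and the red bar is the list median, with the number of genes measured of the number listed. Of the lists drawn, TNF/NF-kB has the highest median, 0.39, and dashed lines mark 2-fold.

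The split into Lyve1 and class II subsets was examined with 2 further lists. At least 2 UMIs of Lyve1, Folr2 and Cd163 were counted in 5 of 20 cells from saline (25%, 8.66 to 49.1) and in 6 of 43 from NP (14.0%, 5.30 to 27.9), and the intervals overlapped. Of the 14 genes of the Lyve1 list, 5 were measured, with a median of -0.30. Folr2 was at -0.996 (-1.84 to -0.13), the lectin Mgl2 at -0.77 (-1.16 to -0.38), the phosphatidylserine receptor Timd4 at -0.30 (-0.87 to 0.29) and the selenium carrier Selenop at 0.20 (-0.07 to 0.47). Fcna, a lectin of the complement system, was at 1.07 (0.57 to 1.60), but 97 of its 222 NP UMIs came from 1 cell, and weighting cells equally gave -0.26. Lyve1 itself had 12 and 33 UMIs, 32 of the latter in 1 cell. Genes listed for the class II subset were split, with Axl and Cd83 (0.56) above and Ccr2 and Cx3cr1 below, and a median of 0.42 over 7 genes.

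Lists that report on the state of the suspension were also compared. The 17 dissociation stress genes summed to 20226 CPM in saline and 17680 CPM in NP (log2 ratio -0.19, -0.24 to -0.14). The immediate early genes in it were lower in NP, among them Fos (-0.29, -0.42 to -0.17), Junb (-0.44, -0.58 to -0.30) and Egr1 (-0.50, -0.69 to -0.31), while the heat shock genes Hspa1a (1.20, 0.74 to 1.68), Hspa1b (0.85, 0.38 to 1.34) and Hsp90aa1 were higher and Dnajb1 was at -0.24. Hspa1a and Hspa1b are near-identical copies. The median mitochondrial share was 3.45% in saline and 3.53% in NP cells. The part of handling in these differences was not tested, and with 1 library per condition it cannot be told apart from the treatment.

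Cell cycle genes were near even, at 685 and 686 CPM (log2 ratio 0.00, -0.27 to 0.28), with Mki67 counted in 1 of 20 and 3 of 43 cells and Cdk1 at 0. The epithelial list had 41 and 43 UMIs, with 34 and 4 from Scgb1a1, the club cell secretory protein, and Epcam and Cdh1 at 0. Endothelial genes had 16 and 60 UMIs, led by Lyve1, with Cdh5 at 0. Stromal genes had 22 and 51 UMIs, led by Inmt, with Col1a1 and Dcn at 0, and erythrocyte genes had 2 and 6 UMIs. The B cell list had 30 and 73 UMIs, led by Ighm. The alveolar list, of which the rule limited 5 genes, had 40 and 112 UMIs, led by Itgax, with Krt79, Atp6v0d2, Car4, Ear1 and Cidec at 0.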

How the data were processed

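Single-cell suspensions of pooled lungs were profiled by 10x Genomics sequencing, as 1 library per condition. Per the labels, Cell Ranger was used by the authors with the mm10 build (the matrix headers carry software version 4, and the submitters' processing notes list Cell Ranger 6.0 and bcl2fastq) and the deposited matrices hold UMI counts that were not normalized. The deposited counts hold 91168129 saline and 90081747 NP UMIs, in 1778347 and 1757924 barcodes with a UMI.

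Cells with 500 to 5000 genes and under 7.5% mitochondrial UMIs were kept, as in the study's methods, and the C1q macrophages were then selected by the limits given above. The members, gene lists and limits were chosen with earlier results of these data known. UMIs of a gene were pooled over the selected cells of a library and scaled to CPM. Ratios used counts under 3 set to 3, with exact conditional binomial 95% intervals, and shares had Clopper-Pearson intervals. Both cover counting error only. Genes needed 50 UMIs over both libraries, and 2-fold was a rule of size. The code was tested on simulated data. Genes named were the 5 markers, the 10 highest and 10 lowest ratios among genes with 100 UMIs that were present in 10% of cells, and the leading members of each list. Some others (such as Gpnmb, Iigp1, Prg4 and Alox15) were chosen after their values were seen, and a few genes are not reported here. Gene identifiers were matched to GENCODE vM21 on GRCm38 (99.8% found), and promoters came from RefSeq. Doublets were not removed. Scrublet (scanpy 1.11.5) marked 1 of 8662 saline cells and 311 of 8333 NP cells and 0 selected cells, so that it did not work on the saline library. Alternatives covered the limits on cells and genes, equal weight per cell, the top cell left out, centring, free RNA and thinning to 2000 UMIs. Those without the cells rich in S100a8 and S100a9, without the Prg4 and Alox15 cells, or with class II high cells only were added after the data were seen. Scripts ran in Python 3.11.15 (scipy 1.17.1, pandas 2.3.3, numpy 2.4.6), and plots were drawn with matplotlib 3.10.9.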

Additional observations from a re-analysis of the deposited data

How the results depend on the processing

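Of 1842 values recomputed under alternatives, 1642 stayed within 1.5 times a count or within the interval of a ratio, share or median, 190 moved past it, and 10 values of gene ratios past 2-fold took the other sign. Of 1136 values of gene ratios within 2-fold, 99 also took the other sign, among them Pf4 without the Prg4 and Alox15 cells, and 31 of these are counted as moved. With the cell holding the most UMIs of each gene left out of each library, 138 genes were at least 2-fold higher and 27 lower in NP, and the TNF/NF-κB median was 0.65. This step removes 1 of 20 saline but 1 of 43 NP cells per gene and keeps the library totals. The 0.65 therefore cannot be set against the main value of 0.39. With genes of 20 UMIs or more, 298 were higher and 234 lower, and with 100 UMIs or more, 14 and 18. The type I interferon median, over 3 genes in the main setting, was 0.66, 0.69 and 0.72 with C1q limits of 5 UMIs, 20 UMIs and 0.2% of UMIs. Without the Prg4 and Alox15 cells, the ratios of Slpi (-1.87), Saa3 (-2.10), Il6 (0.32) and Apoc1 (0.46) took the other sign. With class II high cells only, Slpi (-1.13), Saa3 (-1.51) and Apoc1 (0.16) did so, with the top cells left out Il6 (1.06) and Apoc1 (1.14), and with equal weight per cell Fcna (-0.26). With the top cells left out, the saline counts of Il6 and Apoc1 were at or under the floor of 3. The cause of these shifts was not tested, apart from the cells each setting leaves out. No paired analysis was possible because each condition is 1 library. With 20 and 43 cells, depth limits all genes under 50 UMIs, and most interferon genes among them.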

Other observations

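Genes too low for the 50 UMI limit differed in both directions, and those named here were chosen after their values were seen. The pooled NP cells hold more UMIs in all, so the log2 ratios of CPM and not the UMIs compare the libraries. Il1a, the cytokine interleukin-1α, had 1 saline UMI and 37 NP UMIs in 8 of 43 cells, at most 12 in a cell (log2 ratio 2.18, 95% counting interval 1.20 to 9.11). Cxcl14, a chemokine, had 2 and 30 UMIs in 2 and 11 cells (1.88, 0.48 to 5.57). Zbp1, a sensor of nucleic acids, had 6 and 39 UMIs in 4 and 12 cells (1.26, 0.01 to 2.79). In the other direction, Scgb1a1, a transcript of club cells, had 34 and 4 UMIs (-4.53, -6.49 to -3.04), and Chil3, a chitinase-like protein, had 17 and 5 (-3.21, -5.00 to -1.71). Most UMIs of some genes higher in NP lay in 1 NP cell each, 31 of 32 for the lectin Cd209g and 35 of 39 for the fatty acid carrier Fabp5. These values have no replicate, and none of them was tested.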
